A study of Mus musculus with 8 samples.

Results

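Krt6a, Krt6b, Krt16 and Krt17 are 4 of the 22740 protein-coding genes counted in mouse dorsal skin, and were taken by name from the gene table as a set of keratins that stressed epidermis is known for. All 4 passed the filter on low counts and entered the tests. Their levels are given in CPM, the usual scaling of counts to the sequenced library, here normalised for composition, in every mouse.

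The skin came from 8 female BALB/c mice, 6 to 8 weeks old by the labels, that had all been fed a low-fibre diet. There were 4 groups of 2 mice. Baseline CTL mice received water and no allergen, and baseline butyrate mice received 400 mM sodium butyrate, a short-chain fatty acid, in the drinking water without allergen. Lesional CTL mice received water, and 4 doses of 15 µg house dust mite (HDM) allergen were placed on the dorsal skin over 2 weeks. Lesional butyrate mice had the same exposure, with butyrate given for 2 weeks beforehand and throughout. The comparisons address what allergen exposure does to these keratins, and whether oral butyrate alters that response. Baseline and lesional mice belong to separately numbered sets in the labels, and baseline skin was taken when butyrate treatment ended, so that HDM exposure, patching, the set of mice and the time of collection cannot be told apart.

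Keratins are the filament proteins of epithelial cells, and each filament is built from a type II keratin paired with a type I keratin. Resting epidermis between hair follicles makes Krt5 and Krt14 in the basal layer and Krt1 and Krt10 above it. The type II keratins Krt6a and Krt6b and their type I partners Krt16 and Krt17 are made at rest mainly in hair follicles, nails and ridged skin, and are switched on in the epidermis between follicles after wounding and in inflammation. In whole skin, fewer cells of a type and less RNA per cell cannot be told apart.

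Each pair sits side by side in a keratin gene cluster, on the minus strand of GRCm38. Krt6a (ENSMUSG00000058354, 9 exons) lies at chr15:101689910-101694307, 9622 bases from Krt6b (ENSMUSG00000023041, 9 exons) at chr15:101676023-101680287. Krt16 (ENSMUSG00000053797, 8 exons) lies at chr11:100246091-100248902, 7314 bases from Krt17 (ENSMUSG00000035557, 8 exons) at chr11:100256217-100261029. No annotated gene lay in either gap. On the opposite strand, Krt6a overlapped Gm49428 and Gm44342, and Krt6b overlapped Gm44383.

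The coding sequences of Krt6a and Krt6b matched at 1622 of 1659 aligned bases (97.8%), whereas those of Krt16 and Krt17 matched at 75.8%. The 90-base stretch of 1 exon in which the Krt6 pair differed most is shown because reads there can tell the genes apart. Capitals mark the 12 bases that differ in the reference genome, at chr15:101692484-101692573 for Krt6a and chr15:101678303-101678392 for Krt6b, both read on the minus strand from coding base 787 to 876.
Krt6a: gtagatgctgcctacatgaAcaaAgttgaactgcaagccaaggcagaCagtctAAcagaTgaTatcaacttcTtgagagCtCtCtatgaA
Krt6b: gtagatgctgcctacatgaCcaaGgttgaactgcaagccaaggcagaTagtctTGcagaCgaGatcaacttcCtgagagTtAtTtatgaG

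The longest run without a difference was 280 bases, from coding base 34 to 313, at chr15:101693936-101694215 in Krt6a and chr15:101679911-101680190 in Krt6b. It is shown because a read lying within it belongs equally to each gene.
Krt6a and Krt6b: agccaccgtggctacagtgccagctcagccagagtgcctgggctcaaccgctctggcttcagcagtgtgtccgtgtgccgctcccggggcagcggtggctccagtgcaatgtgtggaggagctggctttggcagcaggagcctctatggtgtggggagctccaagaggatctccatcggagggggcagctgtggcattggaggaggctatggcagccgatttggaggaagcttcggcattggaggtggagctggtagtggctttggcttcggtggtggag

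Of all 50-base windows of the Krt6a transcript, 49.5% also occurred in another gene, and 43.6% occurred in Krt6b. For Krt6b the share was 50.1%, and for Krt16 it was 37.6%, mostly shared with Gm11597 (25.2%) and Krt14 (12.4%). For Krt17 it was 3.99%. How reads with several matches were counted is not given in the sources used here, so the split between Krt6a and Krt6b is uncertain, and their sum is given where it changes a call.

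The libraries held 18004136 to 21085544 counts. The skin label was met by its keratinocyte markers in all 8 mice, with Krt5 at 3797 to 5945 CPM and Krt1 at 372 to 4007 CPM. The baseline butyrate mice stood apart from each other: 3872 of 14319 genes with a mean of at least 1 CPM were over 2-fold apart between them, against 319 in baseline CTL, 252 in lesional CTL and 709 in lesional butyrate mice. Hair shaft keratins summed to 3982 CPM in baseline butyrate replicate 3 and to 3.84 to 9.95 CPM in the other 7 mice, and the companion and inner root sheath list summed to 20057 CPM against 64.2 to 140. Calls are therefore given with all 8 mice and, in comparisons that do not use the baseline butyrate mice, also without these mice where a call changes. A gene was called when its edgeR false discovery rate (FDR, adjusted over all tested genes) was below 0.1 and its fold change above 2.

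In baseline CTL skin the 4 keratins differed widely in level. Per length of transcript (RPKM, the CPM divided by exon length in kilobases), Krt17 stood at 497 ± 49.8 (SD, n = 2), Krt6a at 107 ± 13.7, Krt16 at 27.9 ± 1.96 and Krt6b at 7.88 ± 1.08, and none of these ranges overlapped. Together they made up 5.96% and 5.45% of the summed RPKM of all 51 listed keratins in the 2 mice. Krt17 was therefore the main one of the 4 in resting skin, at 77.9% and 77.3% of their summed RPKM, and Krt6b the least.

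HDM exposure of CTL mice raised Krt6a, Krt6b and Krt16. Krt6a, a type II keratin, stood at 283 and 236 CPM in baseline CTL mice and at 2162 and 1414 CPM in lesional CTL mice. Its log2 fold change was 2.78 (SE 0.49, edgeR FDR = 0.0532), a 6.89-fold rise. Krt6b, its near-identical neighbour, went from 15.9 and 19.3 CPM to 1809 and 1124 CPM. The log2 fold change of Krt6b was 6.38 (SE 0.65, edgeR FDR = 0.0230), an 83.3-fold rise. The lesional mice lay far above the baseline mice for each of these type II genes. With counts of Krt6a and Krt6b summed, the log2 fold change was 3.55 (SE 0.45, edgeR FDR = 0.0322).

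Of the type I partners, Krt16 passed the test and Krt17 did not. Krt16 stood at 41.5 and 45.8 CPM in baseline CTL mice and at 1702 and 1148 CPM in lesional CTL mice. Its log2 fold change of 5.03 (SE 0.36, edgeR FDR = 0.00725) was a 32.6-fold rise. Krt17 stood at 826 and 717 CPM at baseline and at 2875 and 1899 CPM in lesional skin. The ranges of Krt17 did not overlap, but its log2 fold change of 1.63 (SE 0.64, edgeR FDR = 0.238) missed the threshold. Without the baseline butyrate mice it was called, at 1.63 (SE 0.28, edgeR FDR = 0.0113), as it was by DESeq2 over all 8 mice and by edgeR with only the 4 mice compared.

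So 3 of 4 of these keratins were called higher after HDM in CTL mice, against 2.37% of all tested genes, and 4 of 4 without the baseline butyrate mice, against 6.29%. In 4 of 4 both lesional CTL mice lay above both baseline CTL mice, as did 36.7% of all tested genes. The calls varied with the mice included. Leaving out any 1 mouse left its group with 1 mouse. The number of calls then changed over all tested genes as well as among these 4. Calls of these 4 were lost in some of these fits. The log2 fold changes kept their sign in every such fit, at 2.45 to 3.06 for Krt6a, 6.00 to 6.68 for Krt6b, 4.72 to 5.28 for Krt16 and 1.30 to 1.90 for Krt17.

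**Figure D1:**
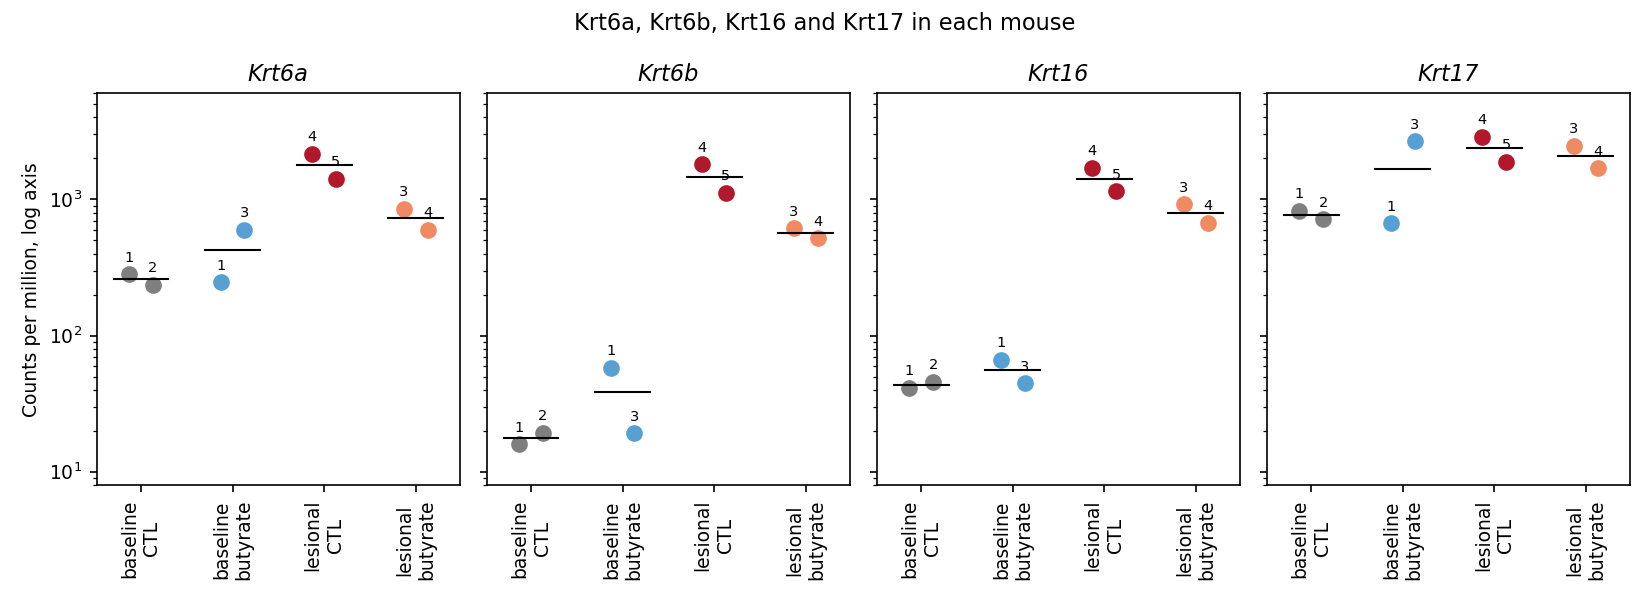
CPM on a log axis for Krt6a, Krt6b, Krt16 and Krt17 in each of the 8 mice, by group. Points are mice with their replicate number and black lines are group means: Krt6b rises from 15.9 and 19.3 CPM in baseline CTL to 1809 and 1124 CPM in lesional CTL mice, whereas Krt17 is already at 826 and 717 CPM at baseline and reaches 2671 CPM in baseline butyrate replicate 3.

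Skin exposed to HDM under butyrate was also set against baseline CTL skin, a comparison that uses no baseline butyrate mouse. Krt6b stood at 612 and 519 CPM in lesional butyrate mice, a log2 fold change of 5.01 (SE 0.61, edgeR FDR = 0.0676) over baseline CTL. Krt16 stood at 922 and 674 CPM, a log2 fold change of 4.19 (SE 0.35, edgeR FDR = 0.0249). These 2 were called higher, as were 0.303% of all tested genes. Krt6a, at 854 and 599 CPM, had a log2 fold change of 1.49 (SE 0.47, edgeR FDR = 0.273). Krt17, at 2472 and 1701 CPM, had a log2 fold change of 1.44 (SE 0.64, edgeR FDR = 0.361). All 4 lay above baseline CTL without overlap, as did 31.2% of tested genes.

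Without the baseline butyrate mice all 4 were called higher in this comparison, against 3.79% of tested genes, with edgeR FDR of 0.0233 for Krt6a, 0.00279 for Krt6b, 0.00338 for Krt16 and 0.0256 for Krt17. With Krt6a and Krt6b summed as 1 gene over all 8 mice, the log2 fold change was 2.22 (SE 0.42, edgeR FDR = 0.158), so that the call of Krt6b rested on the split between the genes. With 1 mouse left out in turn, the log2 fold change ranged from 1.21 to 1.73 for Krt6a and from 4.87 to 5.15 for Krt6b. It ranged from 3.95 to 4.41 for Krt16 and from 1.14 to 1.69 for Krt17. The calls of Krt6b and Krt16 did not hold in every such fit, and the number of calls changed over all tested genes too.

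Against their own baseline group, lesional butyrate mice showed a called rise of Krt16 alone. Krt16 went from 66.2 and 44.6 CPM to 922 and 674 CPM, a log2 fold change of 3.85 (SE 0.34, edgeR FDR = 0.0295). Called higher were 0.277% of all tested genes. Krt6b, from 57.9 and 19.1 CPM, had a log2 fold change of 3.88 (SE 0.57, edgeR FDR = 0.104), just outside the threshold. Krt6a had 247 and 597 CPM in baseline butyrate mice and a log2 fold change of 0.78 (SE 0.46, edgeR FDR = 0.525). Krt17 had 668 and 2671 CPM there and a log2 fold change of 0.32 (SE 0.63, edgeR FDR = 0.867).

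Replicate 3 of the baseline butyrate group set these last values. Its 597 CPM of Krt6a lay just under the 599 CPM of the lower lesional butyrate mouse, and its 2671 CPM of Krt17 lay above both lesional butyrate mice. Krt6a, Krt6b and Krt16 did not overlap between the groups, as held for 15.7% of all tested genes. With 1 mouse left out in turn, the log2 fold change ranged from 0.29 to 1.56 for Krt6a and from 3.29 to 4.89 for Krt6b. It ranged from 3.59 to 4.17 for Krt16 and from -0.35 to 1.65 for Krt17. Such a fit leaves 1 mouse in a group, so only effect sizes are given. The call of Krt16 did not hold in every such fit, and the number of calls changed over all tested genes too.

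Butyrate lowered none of the 4 in lesional skin past the threshold, although 3 of them lay lower in both butyrate mice. Krt6b stood at 612 and 519 CPM with butyrate against 1809 and 1124 CPM without, a log2 fold change of -1.37 (SE 0.52, edgeR FDR = 0.961). Krt6a stood at 854 and 599 CPM against 2162 and 1414 CPM, a log2 fold change of -1.30 (SE 0.46, edgeR FDR = 0.951). For these type II keratins the groups did not overlap. Krt16 stood at 922 and 674 CPM against 1702 and 1148 CPM, again without overlap, with a log2 fold change of -0.84 (SE 0.30, edgeR FDR = 0.955). Krt17 overlapped between the groups, at 2472 and 1701 CPM against 2875 and 1899 CPM, with a log2 fold change of -0.19 (SE 0.62, edgeR FDR = 1.00) and a 95% interval of -1.71 to 1.32.

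No gene at all was called in this comparison with edgeR over all 8 mice (0% of 15163), although 734 had an unadjusted p below 0.05, limma-voom called 1 and DESeq2 called 124. Krt6a, Krt6b and Krt16 had unadjusted edgeR p-values of 0.0298, 0.0368 and 0.0321. Being lower in both butyrate mice than in both CTL mice held for 3 of these 4 keratins and for 22.5% of all tested genes. Without the baseline butyrate mice, Krt6b was called lower (log2 fold change -1.38, SE 0.25, edgeR FDR = 0.0902), as were 0.911% of tested genes. In that fit the edgeR FDR was 0.111 for Krt6a, 0.193 for Krt16 and 0.807 for Krt17. DESeq2 over all 8 mice called none of the 4, the lowest FDR being 0.301 (Krt6a). Leaving out lesional CTL replicate 4 or lesional butyrate replicate 4 turned the sign of Krt17, to 0.14 and 0.05.

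Set against the gain over baseline CTL, the 4 genes kept different shares under butyrate. In mean CPM, Krt6a kept 30.6% of the gain seen in CTL mice, Krt6b 37.8%, Krt16 54.6% and Krt17 81.4%. On the log2 scale the gains over baseline CTL under butyrate and in CTL mice lay closer. They were 1.47 against 2.76 for Krt6a, 5.01 against 6.35 for Krt6b, 4.18 against 5.00 for Krt16 and 1.41 against 1.60 for Krt17. These shares and gains come from group means of 2 mice and carry no test.

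**Figure D2:**
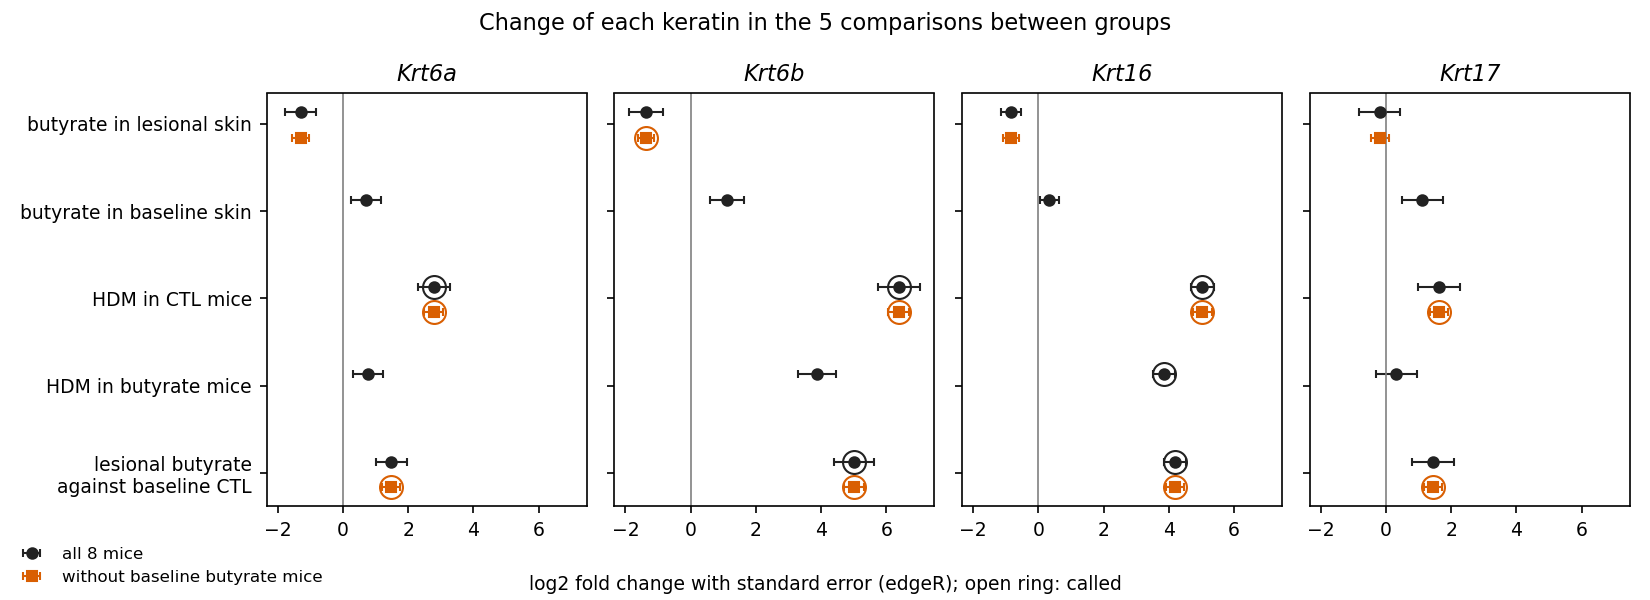
log2 fold change with its standard error from edgeR for each keratin in 5 comparisons, over all 8 mice (circles) and without the baseline butyrate mice (squares, for the 3 comparisons that do not use them), with an open ring around called values. Krt6b and Krt16 sit furthest to the right after HDM, the values for butyrate in lesional skin lie between -1.37 and -0.19, and the standard errors are shorter in the squares.

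In baseline skin butyrate gave no call for any of the 4. The log2 fold changes over baseline CTL were 0.70 (SE 0.46) for Krt6a, 1.13 (SE 0.52) for Krt6b, 0.34 (SE 0.31) for Krt16 and 1.11 (SE 0.63) for Krt17, with edgeR FDR of 0.714 for Krt6a, Krt6b and Krt17 and 0.717 for Krt16. No gene was called by edgeR (0% of 15163), with 529 at an unadjusted p below 0.05, 0 called by limma-voom and 58 by DESeq2. None of the 4 was higher in both butyrate mice than in both CTL mice, whereas 13.8% of tested genes were.

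The 2 baseline butyrate mice departed from CTL in opposite members of each pair. Replicate 1 held the higher Krt6b (57.9 CPM against 19.1) and Krt16 (66.2 CPM against 44.6). Replicate 3 held the higher Krt6a (597 CPM against 247) and Krt17 (2671 CPM against 668). Replicate 3 is also the mouse with high hair follicle genes: Krt75, a companion layer keratin, was at 1274 CPM there and at 50.8 to 128 CPM in the other 7 mice, and the hair growth phase list summed to 1199 CPM against 75.3 to 118. Its resting suprabasal keratins summed to 2296 CPM, against 13885 to 14551 in the other baseline mice, and its skeletal muscle markers to 9140 CPM against 36499 to 44295. The part of hair follicle RNA in its Krt6a and Krt17 was not tested. With replicate 1 left out, the log2 fold change under butyrate was 1.20 for Krt6a and 1.79 for Krt17, on replicate 3 alone.

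The difference between the butyrate effect in lesional and in baseline skin was -2.0 (SE 0.65) for Krt6a, -2.50 (SE 0.74) for Krt6b, -1.18 (SE 0.43) for Krt16 and -1.31 (SE 0.89) for Krt17 on the log2 scale, each with an edgeR FDR of 0.840. No gene was called by edgeR for this difference (0% of 15163), 703 had an unadjusted p below 0.05, and limma-voom called 0 and DESeq2 37. With 1 mouse left out in turn, the value ranged from -2.50 to -1.23 for Krt6a and from -3.09 to -1.49 for Krt6b. It ranged from -1.44 to -0.86 for Krt16 and from -1.98 to 0.02 for Krt17. The 0.02 came from the fit without baseline butyrate replicate 3.

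Because the members of a pair share a library, their ratio within a mouse does not depend on its depth. Per length, Krt6a exceeded Krt6b 16.5-fold and 11.3-fold in baseline CTL mice, 3.94-fold and 28.9-fold in baseline butyrate mice, 1.10-fold and 1.16-fold in lesional CTL mice, and 1.29-fold and 1.07-fold in lesional butyrate mice. As counted, the genes were thus near parity in all 4 lesional mice and far from it in all 4 baseline mice. This ratio and its test rest on the split of reads between Krt6a and Krt6b, which is uncertain. The mean log2 ratio was 0.21 ± 0.12 (SD, n = 4) in lesional and 3.59 ± 1.21 (SD, n = 4) in baseline skin, with a two-sided exact permutation p = 0.0286, the smallest this design allows (0.0429 adjusted over 6 ratios).

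Krt16 and Krt17 moved in the same way. Krt17 exceeded Krt16 per length 20.1-fold and 15.8-fold in baseline CTL mice, 10.2-fold and 60.4-fold in baseline butyrate mice, 1.70-fold and 1.67-fold in lesional CTL mice, and 2.71-fold and 2.55-fold in lesional butyrate mice. The log2 ratio of Krt16 to Krt17 was -1.07 ± 0.37 in lesional and -4.39 ± 1.09 in baseline skin (SD, n = 4 each, exact permutation p = 0.0286, adjusted 0.0429). Without baseline butyrate replicate 3 the lesional to baseline difference was -2.97 for Krt6a to Krt6b and 2.81 for Krt16 to Krt17.

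The type II pair also gained on its type I partners. The log2 ratio of Krt6a and Krt6b to Krt16 and Krt17 was -0.79 and -0.85 in lesional CTL mice, -1.80 and -1.67 in lesional butyrate mice, -2.17 and -2.21 in baseline CTL mice, and -1.88 and -2.78 in baseline butyrate mice. Lesional exceeded baseline skin by 0.98 (exact permutation p = 0.0286, adjusted 0.0429, n = 4 each). The lesional butyrate mice lay below the lesional CTL mice, but with 2 mice against 2 no exact p can fall below 0.333, so this is given as values.

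Against the keratins of resting epidermis the picture was mixed. Krt16 stood at 0.00807 and 0.00929 times the RPKM of Krt10 in baseline CTL mice and at 2.75 and 0.913 times in lesional CTL mice, and the log2 ratio differed between lesional and baseline skin by 5.33 (exact permutation p = 0.0286, adjusted 0.0429, n = 4 each). In lesional butyrate mice that ratio was 0.257 and 0.229. The Krt6 pair exceeded Krt1 per length in lesional CTL mice (5.09-fold and 3.19-fold) but not in lesional butyrate mice (0.691 and 0.690 times). Over all mice the Krt6 to Krt1 difference between lesional and baseline skin was 2.29 on the log2 scale (exact permutation p = 0.143, adjusted 0.171, n = 4 each). Baseline butyrate replicate 3, at 3.03-fold, fell among the lesional mice. Without that mouse the difference was 3.34 and the lesional mice all lay above the baseline mice. For Krt17 against Krt14, the basal type I keratin, the difference was 0.17 (exact permutation p = 0.829, adjusted 0.829, n = 4 each).

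**Figure D3:**
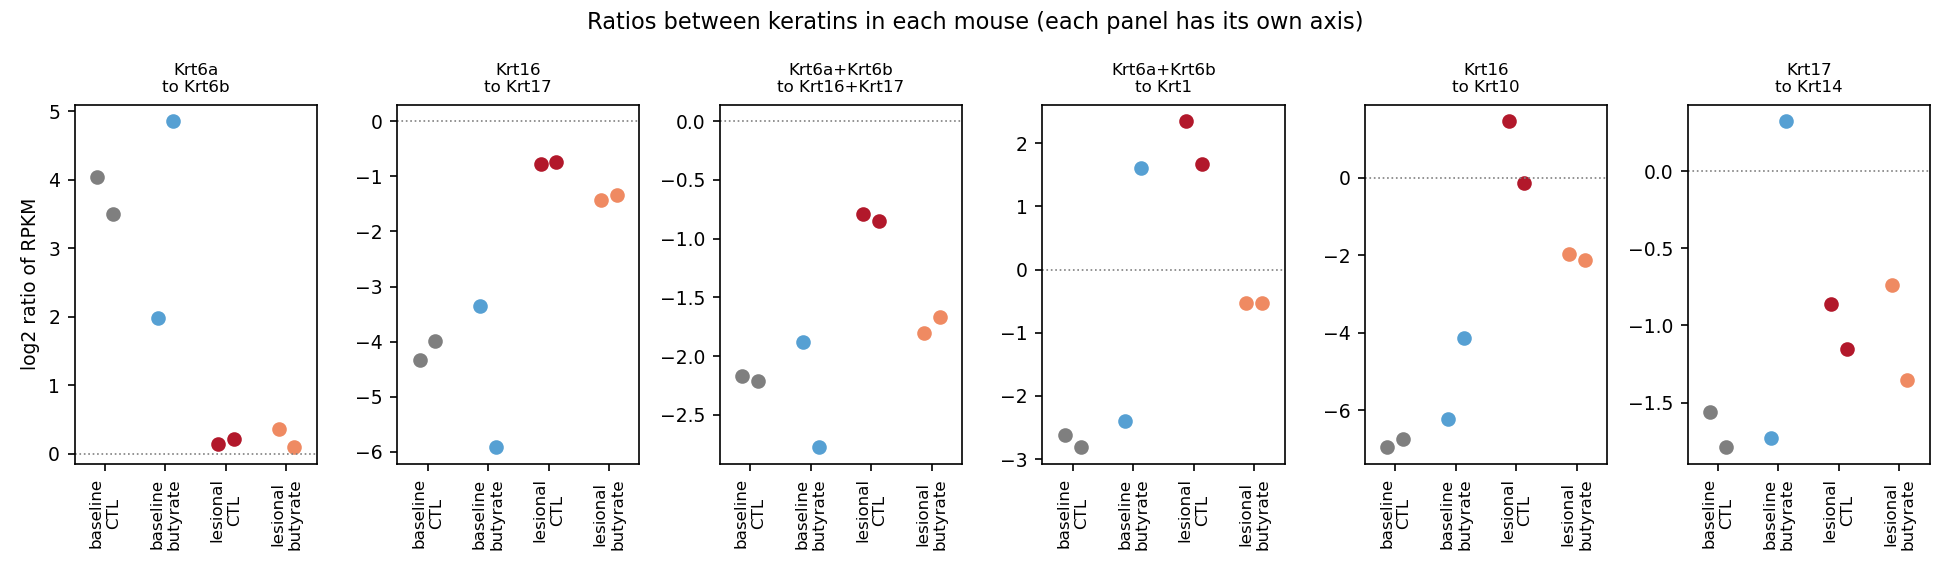
log2 ratio of length-scaled levels for 6 keratin ratios, each panel with its own axis, in the 2 mice of each group. Krt6a to Krt6b falls to between 0.09 and 0.37 in the 4 lesional mice from 1.98 to 4.85 in the 4 baseline mice, and Krt16 to Krt17 climbs to between -1.44 and -0.74 from -5.92 to -3.35.

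Within the keratin family these genes became main components of lesional skin. Their summed share of keratin RPKM went from 5.96% and 5.45% in baseline CTL mice to 38.5% and 30.0% in lesional CTL mice, and was 20.4% and 16.6% in lesional butyrate mice. The suprabasal keratins Krt1, Krt10, Krt2 and Krt77 held 47.9% and 47.7%, then 6.59% and 13.9%, then 30.9% and 28.2%. Baseline butyrate replicate 1 resembled the CTL mice at 5.66% and 50.3%, and replicate 3 had 13.1% and 5.74%. Among all listed keratins by mean RPKM, Krt16 ranked 14 in baseline CTL and 4 in lesional CTL mice, Krt6b 15 and 6, Krt6a 9 and 5, and Krt17 7 and 3.

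Of 38 keratins tested, edgeR over all 8 mice called 4 higher after HDM in CTL mice: Krt6a, Krt6b, Krt16 and Krt79, a keratin of the upper hair follicle. It called 3 lower: Krt2, a late suprabasal keratin, Krt23 and Krt80. Of all 15163 tested genes it called 360 higher and 183 lower. Krt2 was at a low level throughout, with 1.11 and 0.944 CPM in baseline CTL and 0.320 and 0.323 CPM in lesional CTL mice. None of the basal keratins Krt5, Krt14 and Krt15 was called in that fit. Krt6b, Krt16 and Krt6a held places 1, 2 and 4 of 38 by log2 fold change there. In lesional skin under butyrate, Krt16, Krt6a and Krt6b held places 31, 34 and 35, whereas Krt77 (log2 fold change 2.53, SE 0.91, edgeR FDR = 0.951) held place 1, and none of the 38 was called with all 8 mice.

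Without the baseline butyrate mice, 32 of these keratins were tested and more of them were called. After HDM in CTL mice 10 were called higher, namely the 4 stress keratins, Krt79, Krt4, Krt18, Krt27, Krt42 and the hair shaft keratin Krt84. In lesional CTL mice Krt4, Krt18, Krt27, Krt42 and Krt84 reached only 1.11, 1.44, 0.738, 2.30 and 4.80 CPM at most. Called lower were 12, among them all 4 suprabasal keratins, with edgeR FDR of 0.0104 for Krt1, 0.00781 for Krt10, 0.0239 for Krt2 and 0.0187 for Krt77, and the basal keratin Krt15 (log2 fold change -1.80, edgeR FDR = 0.00362). Under butyrate in lesional skin Krt6b was the 1 keratin called lower in that fit. The 5 called higher were Krt1 (edgeR FDR = 0.0677), Krt10 (0.0992), Krt15 (0.0938), Krt23 (0.0778) and Krt80 (0.0677). Of all 15033 genes tested in that fit, 945 were called higher and 915 lower after HDM in CTL mice. Under butyrate in lesional skin 51 of the 15033 were called higher and 137 lower.

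**Figure D4:**
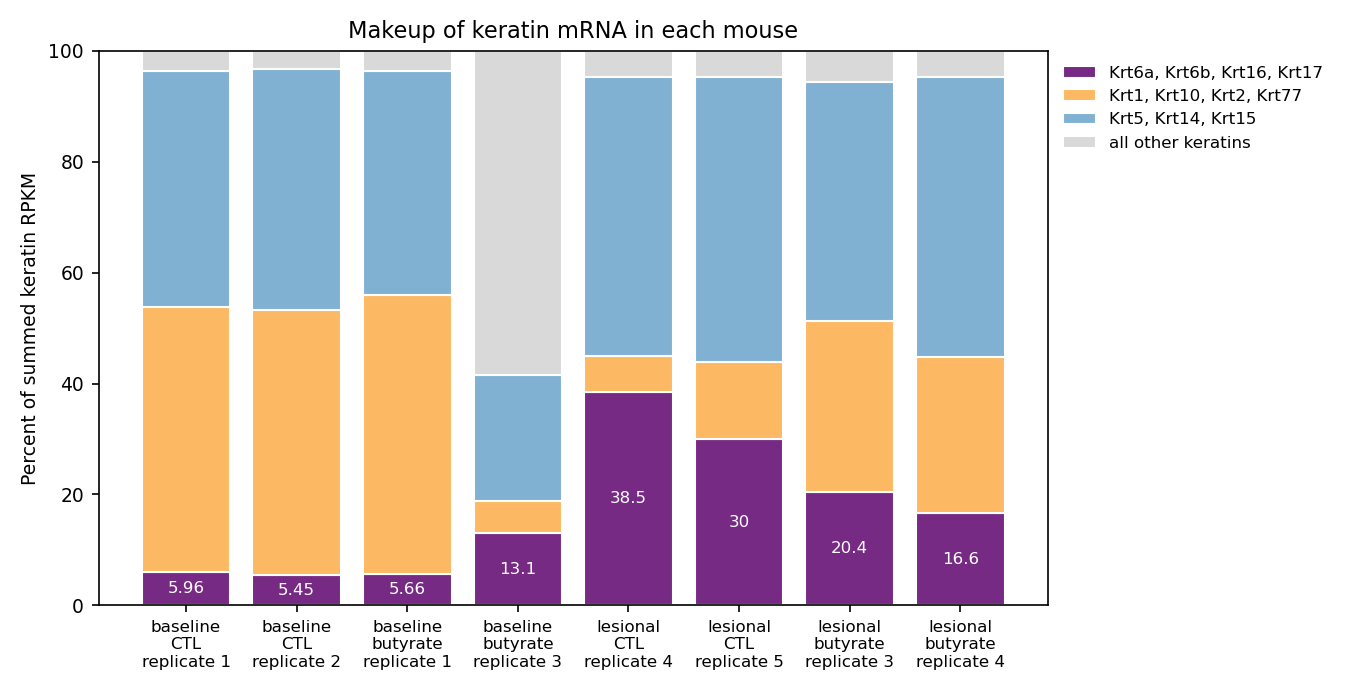
Percent of the summed RPKM of all keratins held by Krt6a, Krt6b, Krt16 and Krt17 (number printed), by Krt1, Krt10, Krt2 and Krt77, by Krt5, Krt14 and Krt15, and by the rest, in each of the 8 mice. The 4 stress keratins hold 38.5% and 30.0% in lesional CTL mice and 5.96% and 5.45% in baseline CTL mice, and baseline butyrate replicate 3 is dominated by other keratins.

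Other genes known to be switched on in wounded or inflamed epidermis were counted from a fixed list of 19, of which 15 were tested: calgranulins, small proline-rich proteins, Lcn2, Slpi and the beta-defensins Defb3 and Defb14. After HDM in CTL mice 13 of 15 tested were called higher and 0 lower, against 2.37% of all tested genes called higher. Without the baseline butyrate mice it was 15 and 0, against 6.29%. Defb3 and Sprr2a2 had no count in any baseline mouse, so these could only come out higher. The median log2 fold change of the 15 tested was 6.19, against -0.02 over all tested genes and 3.91 over the 4 keratins. S100a8, a calgranulin subunit that neutrophils also make, went from 1.33 and 2.39 CPM to 999.8 and 579 CPM. Sprr1b, a cornified envelope precursor, went from 21.4 and 23.6 CPM to 459 and 409 CPM (log2 fold change 4.27, edgeR FDR = 0.00396). This list summed to 1602 CPM in baseline butyrate replicate 3 and to 184 to 200 CPM in the other baseline mice. Sprr1a alone stood at 1516 CPM in that mouse, against 1005 to 1329 CPM in the lesional mice. Under butyrate in lesional skin 14 of 15 had negative values with a median of -1.19, none was called with all 8 mice, and Lcn2 and Slpi were called lower without the baseline butyrate mice.

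Signals known to act on these keratins were counted in the same way. After HDM in CTL mice 2.37% of all tested genes were called higher, or 6.29% without the baseline butyrate mice. Of 8 tested genes of the EGF receptor system, the ligands Hbegf (log2 fold change 2.62, edgeR FDR = 0.0475) and Epgn (2.41, edgeR FDR = 0.0804) were called higher after HDM in CTL mice. The ligands Areg (edgeR FDR = 0.00766) and Tgfa (0.0152) were called higher too without the baseline butyrate mice, and Btc was called lower (0.00623). Of 11 tested cytokines that act on keratinocytes, 7 were called higher: Il1b, Il6, Osm, Tnf, Il19, Il24 and Il33. They were joined without the baseline butyrate mice by Il17f, which had no count in any baseline mouse and could only come out higher. The list's median over all 8 mice was 4.26. Under butyrate in lesional skin none was called with all 8 mice (median -2.04), while Il1b, Il6, Osm, Il20 and Il33 were called lower without the baseline butyrate mice. Il1b stood at 132 and 136 CPM in lesional CTL and at 19.9 and 25.5 CPM in lesional butyrate mice.

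Of 16 tested AP-1, STAT and NF-kB factors only Fosl1, an AP-1 subunit, was called higher after HDM in CTL mice, with all 8 mice (log2 fold change 2.87, edgeR FDR = 0.0972). None of 10 tested NRF2 and target genes was called in that fit, with a median of 0.30, and none of 15 cell cycle genes was, with a median of 0.63. In the smaller fit, without the baseline butyrate mice, 1 gene more was called higher in each of these lists: Junb, an AP-1 subunit (edgeR FDR = 0.00793), Slc7a11, a cystine transporter (0.00366), and Mcm5, a replication factor (0.00357). In lesional skin under butyrate the medians of these 3 lists were -0.15, -0.14 and -0.08, against -0.01 over all tested genes.

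Markers of other cells moved in different ways, and only the neutrophil markers rose after HDM as the keratins did. The 9 neutrophil markers summed to 441 and 443 CPM in lesional CTL mice, 136 and 137 CPM in lesional butyrate mice, 85.5 and 85.1 CPM in baseline CTL mice, and 81.4 and 31.2 CPM in baseline butyrate mice, and Ly6g was listed at 0 in 5 mice. After HDM in CTL mice 7 of 8 tested were called higher, against 2.37% of all tested genes, and again without the baseline butyrate mice (against 6.29%). Under butyrate in lesional skin 6 of 8 were called lower without these mice (against 0.911% of tested genes) and 0 with them. Skeletal muscle markers summed to 36499 and 44295 CPM in baseline CTL mice, 15608 and 21803 CPM in lesional CTL mice and 12522 and 22384 CPM in lesional butyrate mice, with none of 6 called over all 8 mice. When the baseline butyrate mice were left out, 4 of 6 were called lower after HDM in CTL mice, as were 915 of all 15033 tested genes. In lesional butyrate against baseline CTL mice 5 of 6 were called lower, as were 698 of all 15033. Sebaceous gland markers summed to 4195 to 8549 CPM and adipocyte markers to 1367 to 2344 CPM over the 8 mice, with no call in either list after HDM in CTL mice over all 8 mice. In the fit without the baseline butyrate mice Elovl3 was called higher (edgeR FDR = 0.0344) and Scd3 lower (0.0135) among the sebaceous markers, and no adipocyte marker was called. The part of these tissue differences in the keratin values was not tested. Hair shaft keratins summed to 3.84 to 8.68 CPM in the 4 lesional mice and to 8.99 and 9.95 CPM in the baseline CTL mice. Within that list Krt32 was lower in lesional CTL than in baseline CTL mice (0.534 and 1.29 CPM against 5.56 and 6.33). Krt84 was higher (2.30 and 4.80 CPM against 0.389 and 0.333). The part of hair follicle RNA in the lesional values of the 4 keratins was not tested.

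**Figure D5:**
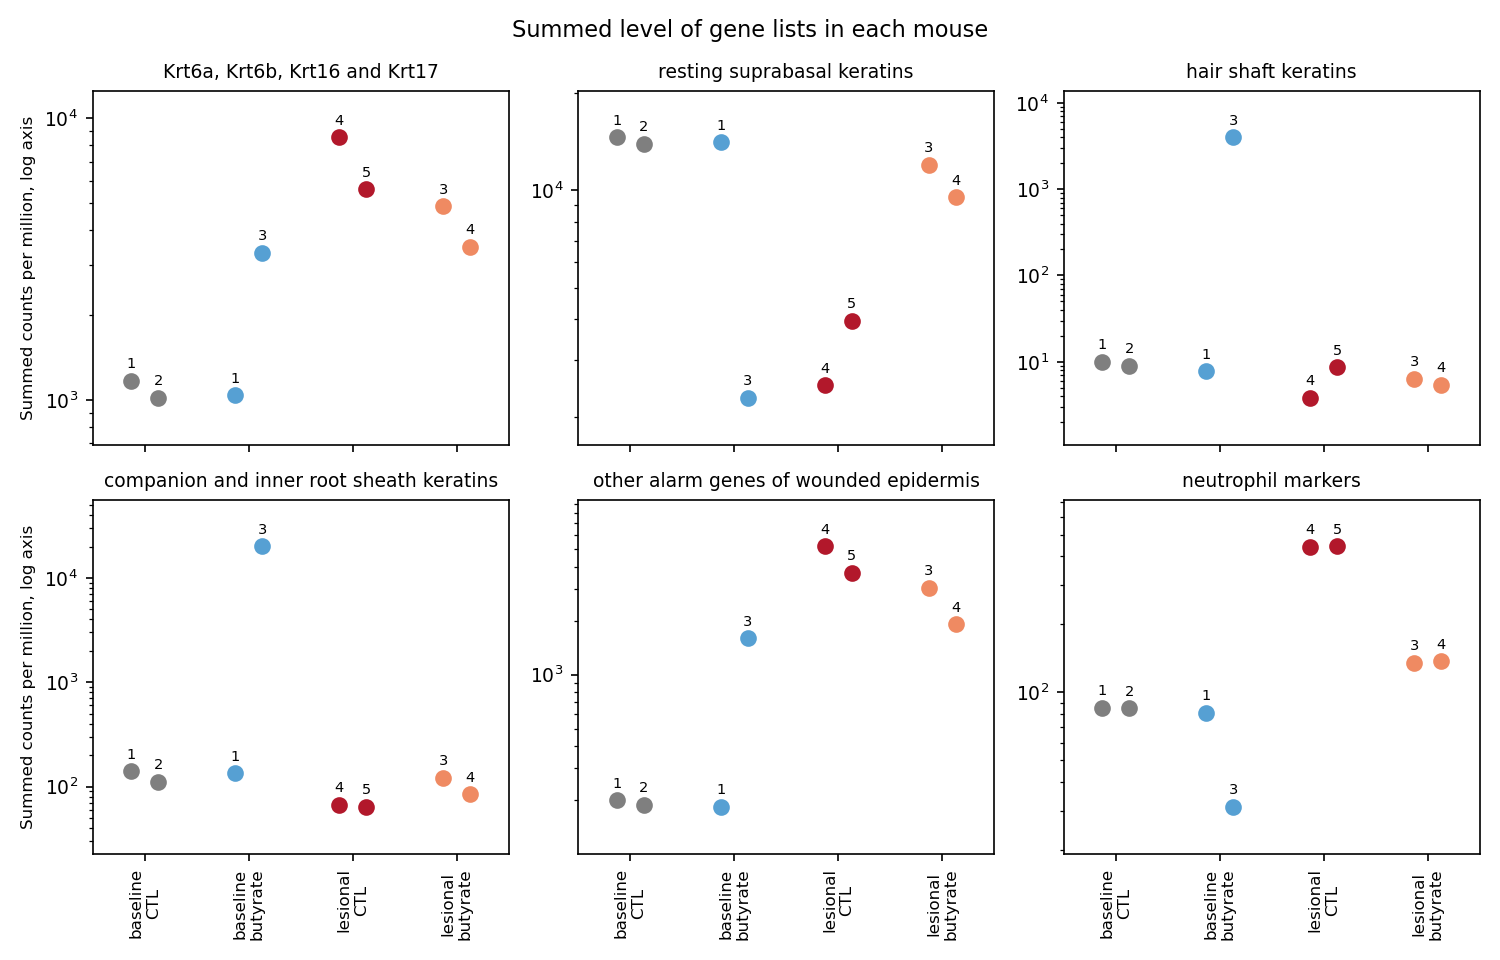
Summed CPM on log axes, each panel with its own range, for the 4 keratins and 5 other gene lists in each mouse, labelled with its replicate number. Baseline butyrate replicate 3 alone has high hair shaft (3982 CPM) and root sheath (20057 CPM) keratins, and lesional CTL mice have the highest neutrophil markers (441 and 443 CPM).

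As a description, genes were ranked by Pearson correlation over the 8 mice with the mean of the 4 keratins on the log2(CPM + 1) scale, among 10923 genes. The mice share groups, so a high value reflects the group pattern, and no p is given. The 10 closest were Mfge8 (r = 0.997), S100a8 (0.996), Tpd52 (0.991), Stfa2 (0.990), S100a9 (0.990), Klk13 (0.989), Ifrd2 (0.988), Tor1a (0.986), Sprr2f (0.986) and Sprr1b (0.985). They varied by very different amounts: S100a8 spanned 8.74 log2 units over the mice and Tor1a 0.27. Taken singly, Krt6b was closest to Krt16 (r = 0.992), Krt16 to Sprr1b (0.994), Krt6a to Hif1a (0.990) and Krt17 to Txndc17 (0.996).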

How the data were processed

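Total RNA of snap-frozen baseline or lesional skin was made into TruSeq libraries and sequenced on an Illumina HiSeq system. Per the labels and the methods, the authors aligned reads to GRCm38 with STAR 2.5.2 and counted them per gene with featureCounts. The deposited values are raw counts of 22740 protein-coding genes, and the name of the table refers to reverse-stranded counting. No per-sample column was left out. Libraries held 18004136 to 21085544 counts, and 3 counts correspond to 0.138 to 0.169 CPM.

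Counts were normalised by TMM, filtered with filterByExpr (minimum count 10, leaving 15163 genes) and fitted with edgeR 4.0.16 in R 4.3.3 (robust quasi-likelihood, 4 group means, all 8 mice, Benjamini-Hochberg FDR). Calls needed an FDR below 0.1 and a fold change above 2, the thresholds of the study. Standard errors were derived from the log2 fold change and its F statistic. RPKM used summed exon length. Groups came from the labels, with 2 mice each. The edgeR p-values set a difference between groups against a spread estimated from mice within all 4 groups, with information shared between genes. The 6 ratios were compared by two-sided exact permutation tests of lesional against baseline mice, with CTL and butyrate mice pooled. Alternatives were limma 3.58.1 voom, DESeq2 1.42.0, RLE factors, no count filter, a larger prior count, fewer mice, each mouse left out in turn, and Krt6a and Krt6b summed. The fits were tested on simulated data.

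Gene annotation was GENCODE vM21 on GRCm38, and sequences came from that genome and those transcripts, so BALB/c differences were not considered. Genes other than the 4 keratins were named by rule: the 10 most alike in pattern among genes with at least 10 CPM, and, from each list, the 3 largest changes and up to 5 called genes. Other genes named as called in a list of over 5 calls, or as closest to a single keratin, were named after their values were seen. The keratins and all lists were chosen with earlier results of these data known.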

Additional observations from a re-analysis of the deposited data

How the results depend on the processing

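Each limit here concerns 2 mice a group and 1 shared estimate of the spread, which was larger for these keratins with the baseline butyrate mice in the fit. RLE factors and a prior count of 2 changed no call among the 4 keratins. Keratins of this set called in HDM in butyrate mice became 2 with limma-voom over all 8 mice, 2 with DESeq2 and 2 with no filter on low counts, and 0 with only the mice compared by edgeR or by limma-voom (the latter chosen after seeing the data). In HDM in CTL mice they became 4 with DESeq2, with only the mice compared (either tool) and without the baseline butyrate group. In lesional butyrate against baseline CTL they became 3 with DESeq2, 4 with only the mice compared, by either tool, and 4 without the baseline butyrate group. For butyrate in lesional skin, 1 was called without that group.

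Genes called for butyrate in lesional skin were 0 with edgeR over all 8 mice, 1 with limma-voom, 124 with DESeq2, 25 and 14 with only the mice compared (edgeR and limma-voom), and 188 without the baseline butyrate group. For butyrate in baseline skin DESeq2 called 58, and for the difference of butyrate effects 37. For HDM in CTL mice 543 became 1093 with DESeq2, 1918 and 1913 with only the mice compared, and 1860 without the baseline butyrate group. For HDM in butyrate mice 53 became 698 with DESeq2 and 0 and 0 with only the mice compared. For lesional butyrate against baseline CTL 58 became 23 with limma-voom, 570 with DESeq2, 1115 and 1129 with only the mice compared, and 1267 without the baseline butyrate group.

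Leaving out each mouse in turn, the number of the 4 called ranged from 0 to 1 for butyrate in lesional skin, 0 to 2 for butyrate in baseline skin, 0 to 4 for HDM in CTL mice, HDM in butyrate mice and lesional butyrate against baseline CTL, and 0 to 3 for the difference. Genes called ranged from 0 to 191, 0 to 3777, 0 to 1936, 0 to 2990, 0 to 1285 and 0 to 3275, the upper ends all without 1 of the baseline butyrate mice. The lone mouse of a group was then assumed to vary like the others. The difference in log2 ratio ranged from -3.93 to -2.97 for Krt6a to Krt6b, 2.81 to 3.67 for Krt16 to Krt17, 0.81 to 1.16 for the Krt6 pair to Krt16 and Krt17, 1.75 to 3.34 for the Krt6 pair to Krt1, 4.61 to 5.95 for Krt16 to Krt10, and -0.03 to 0.67 for Krt17 to Krt14. With a mouse left out, the 4 ratios that had passed kept their sign but not their side of 0.05: the exact permutation p, as the doubled smaller tail, was 0.0571, the smallest that 4 mice against 3 allow (adjusted 0.0571 to 0.0857). Counted by absolute difference, a choice made after seeing the data, their p was 0.0286 to 0.0857, and after adjustment (0.0429) Krt6a to Krt6b, Krt16 to Krt17, Krt16 to Krt10 and the Krt6 pair to Krt1 passed without baseline butyrate replicate 3, and no ratio passed without any other mouse. CPM in place of length-scaled values moved none of the ratios beyond the spread. The causes of the changes between tools were not tested. No paired analysis was possible because mice of any pair of groups have no more than 1 number in common.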
